A study of Mus musculus with 20 samples.

Results

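Immune checkpoint inhibitors (ICI) are antibodies that block receptors which restrain T cells. CTLA-4 limits the priming of T cells, and PD-1 limits their activity in tissue, so blocking both is used against melanoma and can also set off inflammation in healthy organs. Here the response of the mouse hippocampus to the inhibitors was compared between mice with and without a melanoma. The quantity tested was the interaction, which is the difference between melanoma plus ICI and melanoma minus the difference between ICI and control, on the log2 scale. An interaction of 0 means that the inhibitors changed a gene's level by the same factor in both kinds of mice, and a positive one means that the ratio of treated to untreated mice was higher with a tumour. All 20 of the 20 libraries of the series entered 1 fit with 4 groups of 5 mice.

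All mice were male, wild type and 10 to 12 weeks old, and each gave 1 frozen hippocampus for bulk RNA sequencing. The control group carried no tumour and received isotype antibody. The ICI group carried no tumour and was injected with anti-CTLA-4 (1 mg in each dose, 3 doses a week) together with anti-PD-1 (200 µg in each dose, 2 doses a week). The melanoma group received 500000 cells of D4M-3A.UV2, a mouse melanoma line, into the skin on both sides, had 1 week for the tumours to take, and was given isotype antibody. The melanoma plus ICI group had the same tumours and both inhibitors, for a stated 3 weeks. For the ICI group the number of weeks is not given in the sources used here, so equal exposure cannot be checked. Brains were taken 72 h after the last injection, and the hour of the day of harvest is not given in the sources used here. The tumours grew in the skin, and a single tumour line was used. The labels name single mice but not their cages or litters, so the p-values measure the spread between these mice.

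The endothelial cells of brain vessels form the blood-brain barrier. They are sealed by tight junctions, which are built from claudins at contacts of 2 cells and from angulins such as LSR where 3 cells meet, and they are wrapped by pericytes and smooth muscle. The leptomeninges and the choroid plexus lie beside the hippocampus and have vessels and immune cells of their own. In bulk tissue, fewer cells of a type and less RNA per cell cannot be told apart.

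Counts per library summed to between 21990624 and 25735149. The markers of CA1 neurons had a mean log2 CPM (counts per 1000000) between 5.38 and 6.79 and those of dentate granule neurons between 3.43 and 6.36, so hippocampal markers were present in every library. Tissue beside the hippocampus was not constant. The choroid plexus score, the mean log2 CPM of 15 markers, ran from 0.27 to 6.68 and spread widely in each group. The striatal score was 4.84, 6.19 and 5.37 in melanoma replicates 1, 3 and 5 and 4.98 in melanoma plus ICI replicate 3, and between 2.46 and 3.57 in the other libraries. Control replicate 4 and melanoma plus ICI replicate 1 stood apart, with ribosomal protein scores of 7.87 and 7.54 beside 6.94 to 7.23 in the rest. Melanoma plus ICI replicate 3 also stood apart, with the lowest CA1 score (5.38), the lowest dentate score (3.43) and the highest endothelial score (5.04) of the 20.

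No single gene passed the main test. Of 18427 genes tested with the quasi-likelihood test of edgeR, 0 (0%) had a Benjamini-Hochberg adjusted p under 0.05. At an unadjusted p under 0.05 there were 1892 genes (10.3%), where 921 are given by chance alone. They were 1103 with a positive interaction (5.99%) and 789 with a negative one (4.28%). Other tools made calls on the same counts. DESeq2 called 47 of 18425 genes (0.255%), of which 43 had a positive (0.233%) and 4 a negative interaction (0.0217%). The limma voom fit called 19 genes (0.103%), 17 positive (0.0923%) and 2 negative (0.0109%). With 1 surrogate variable, edgeR called 39 genes (0.212%), 38 positive (0.206%) and 1 negative (0.00543%). The negative calls, named after their values were seen, were Ppp1r7, Ptcd1, Gpt2 and Zswim6 in DESeq2, Mfsd2a and Hif3a in limma voom, and Ptcd1 with the surrogate variable. DESeq2 and limma voom shared 14 genes. Single libraries moved the edgeR count between 0 and 11: without melanoma plus ICI replicate 3, the genes Arrdc2, Calr, Cldn5, Etnppl, Fabp7, Hif3a, Kirrel2, Lsr, Mfsd2a, Mmp14 and Pdia6 passed. Without control replicate 4, 1 gene passed (Lsr), without ICI replicate 4, 2 passed (Lsr and Tmem45a), and without melanoma replicate 4, 1 passed (Bsg). Below, "nominal" marks a member with an unadjusted p under 0.05 that did not pass the adjusted threshold.

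The nominal genes had 1 shape. Of the 1103 with a positive interaction, 1096 (99.4%) were lower under inhibitors in tumour-free mice and higher under inhibitors in tumour-bearing mice, and their median inhibitor effects were -0.33 and 0.30 on the log2 scale. Of the 789 with a negative interaction, 778 (98.6%) had the opposite order, with medians of 0.21 and -0.24. Over all 18427 genes the 2 crossing patterns held 35.7% and 30.2%. The nominal genes were selected on the difference of these 2 effects, so their shares describe that selection and are not a separate result. Complete separation was rare: in 3 genes (0.0163%) all 5 ICI libraries lay below all 5 controls while all 5 melanoma plus ICI libraries lay above all 5 melanoma libraries, and 0 genes (0%) did the reverse. The 3 genes were Lsr, Rhoq and Yif1a, with interactions of 1.02 (SE 0.16), 0.35 (SE 0.08) and 0.52 (SE 0.13), and of these Rhoq and Yif1a are outside the leading genes and were named after their values were seen. An opposite-strand gene that overlaps Yif1a held 2261% of its counts, and one that overlaps Rhoq 19.2%, so these reads cannot be told apart without strand.

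**Figure D1:**
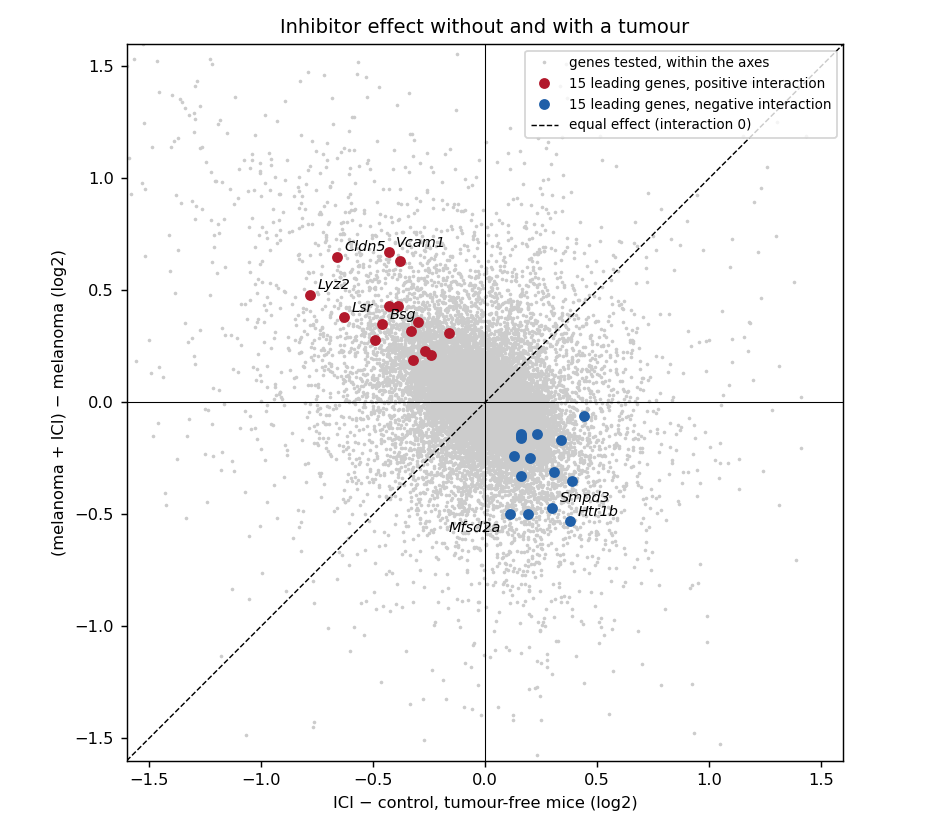
Each grey point is a gene, placed by the log2 difference of ICI and control (horizontal) and of melanoma plus ICI and melanoma (vertical). The 62 genes beyond 1.6 on either axis are not drawn. The 15 leading genes with a positive interaction (red) lie in the upper left, the 15 with a negative one (blue) in the lower right, and the dashed line marks equal effects.

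Lsr had the smallest p of all genes. It encodes angulin-1, which organises the tight junction where 3 cells meet, and lies at chr7:30957770-30973464. Its level was 6.15, 6.51, 5.38, 4.8 and 6.85 CPM in the control libraries and 3.6, 3.66, 3.33, 4.49 and 4.04 in the ICI libraries. In tumour-bearing mice it was 4.37, 4.74, 4.64, 4.5 and 4.3 CPM with isotype antibody and 5.46, 6.07, 5.88, 6.63 and 5.34 with inhibitors. Neither pair of groups overlapped: every ICI library was below every control, and every melanoma plus ICI library was above every melanoma library. The interaction of Lsr was 1.02 (SE 0.16), a 2.02-fold ratio of ratios, with an edgeR adjusted p of 0.0912, a DESeq2 adjusted p of 0.000121 and a limma voom adjusted p of 0.0101. It remained between 0.82 and 1.12 under the alternatives. The opposite-strand genes Gm17077 and Gm4673 overlap Lsr and held 155% of its counts, and whether the counting used strand is not given in the sources used here, so reads of the 3 cannot be told apart.

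Cldn5 encodes claudin-5, the main claudin of the blood-brain barrier, and lies at chr16:18776847-18778260. It was measured at 37.5, 25.1, 29.4, 59.1 and 33.3 CPM in controls and at 23.2, 18.8, 24.1, 23.5 and 27.5 with inhibitors alone. With a tumour it was 22.7, 22.8, 21, 21.2 and 19.9 CPM, and with tumour and inhibitors 41.3, 35.2, 22.8, 33.4 and 35.7. The melanoma libraries were all low and close together, and 4 of the 5 melanoma plus ICI libraries were clearly above them while replicate 3 sat at their upper edge. The interaction was 1.30 (SE 0.26, adjusted p = 0.253 in edgeR and 0.00538 in DESeq2), and 0.99 without control replicate 4 and melanoma plus ICI replicate 1.

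Bsg encodes basigin, a partner of monocarboxylate transporters that is abundant on brain endothelium. It was 390, 527, 440, 521 and 492 CPM in controls, and 322, 318, 352, 345 and 389 with inhibitors alone. In tumour-bearing mice it was 320, 337, 313, 441 and 339 CPM, and 440, 404, 422, 528 and 441 with inhibitors. The tumour-free groups touched without overlapping, and in the tumour-bearing mice only melanoma replicate 4 reached the treated range. The interaction was 0.81 (SE 0.15, edgeR adjusted p = 0.253, DESeq2 0.00183), and 0.91 without melanoma replicate 4.

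Sox18 encodes a transcription factor of endothelial cells. Its mean was 6.96 ± 1.55 CPM in controls (SD, n = 5), 5.15 ± 0.311 under inhibitors alone, 4.29 ± 0.238 with a tumour and 5.78 ± 0.622 with tumour and inhibitors, and its interaction was 0.86 (SE 0.19). All 5 melanoma libraries, at 4.03 to 4.56 CPM, were below all 5 melanoma plus ICI libraries, at 5.05 to 6.76. The tumour-free groups overlapped through control replicate 2, at 4.68 CPM.

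Vcam1 encodes an adhesion molecule that lets white blood cells attach to endothelium and is also made by other brain cells. It was 30.2, 33.9, 30.7, 27.7 and 35 CPM in controls and 21.1, 23.2, 17.7, 26.2 and 28.9 with inhibitors alone. With a tumour it was 21, 20.4, 24.4, 29.9 and 30.7 CPM, and 58.7, 34.7, 36.4, 43.7 and 27.9 with inhibitors. Melanoma plus ICI replicate 1, which stood apart in ribosomal genes, was the highest of the 20. The interaction was 1.10 (SE 0.24, edgeR adjusted p = 0.253) and 0.98 without the 2 libraries rich in ribosomal transcripts.

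Mfsd2a went the other way. It encodes the transporter that carries lysophospholipids with docosahexaenoic acid across brain endothelium and is needed to keep transcytosis low. It was 16.4, 14.7, 16, 15 and 15.3 CPM in controls and 17.9, 17.7, 16.4, 16.3 and 15.2 with inhibitors alone. In tumour-bearing mice it was 27.2, 22.1, 22.3, 25.1 and 26.6 CPM, and 17.5, 16.5, 24.5, 15.6 and 13.2 with inhibitors. The melanoma libraries were the highest group, 4 of the 5 melanoma plus ICI libraries lay in or near the tumour-free range, and replicate 3 stayed among the melanoma libraries. The interaction was -0.61 (SE 0.17, adjusted p = 0.372 in edgeR, 0.133 in DESeq2 and 0.0479 in limma voom).

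**Figure D2:**
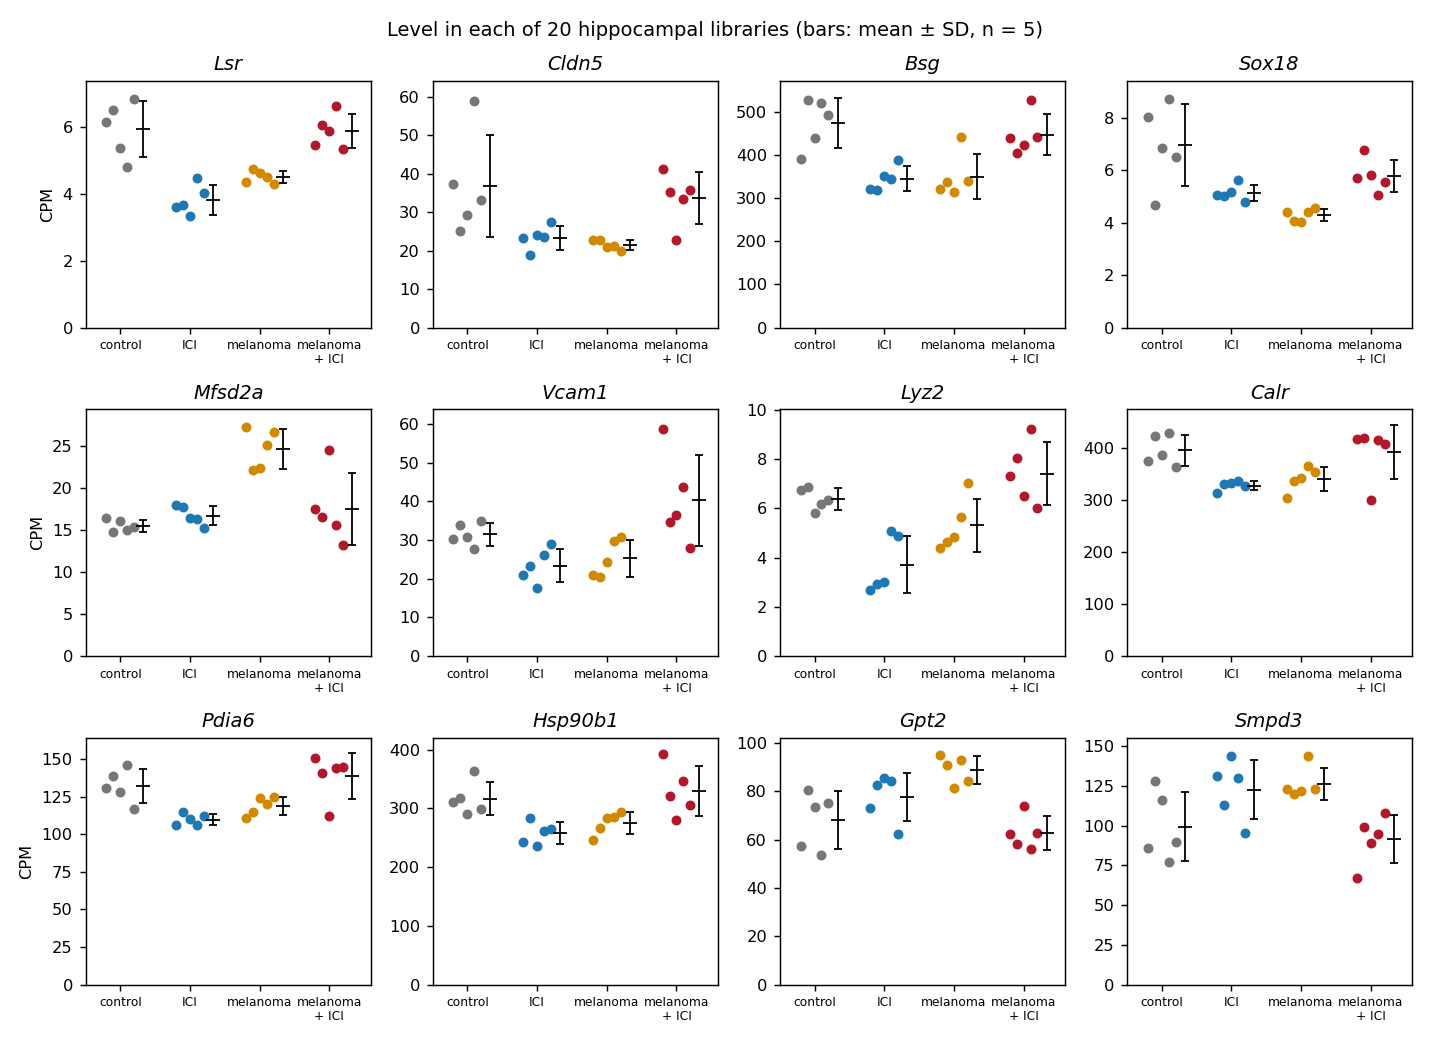
Level in CPM (vertical axis, from 0) of 12 genes in each library, grouped by treatment, with the mean and SD of 5 libraries beside the points. Lsr separates in both pairs of groups, and in Cldn5, Calr, Pdia6 and Mfsd2a 1 melanoma plus ICI library, replicate 3, sits with the melanoma group.

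Of the genes described so far, Cldn5 and Mfsd2a are on the list of endothelial genes. All 20 genes of that list were tested, and 8 (40%) were nominal beside 10.3% of all genes. The 7 positive ones were Cldn5, Pecam1, Emcn, Itm2a, Kdr, Slco1c1 and Eng, and the negative one was Mfsd2a. Pecam1, an adhesion molecule of endothelial junctions, had an interaction of 0.61 (SE 0.16), and Kdr, the main receptor for vascular endothelial growth factor, had 0.85 (SE 0.29). Of the 7 transporter genes with symbols in Abc or Slc on the list, Slco1c1, a thyroxine transporter, was nominal at 0.80 (SE 0.29). Slc16a1 and Slc7a5 had 0.31 and -0.28, and Abcb1a, Abcg2, Slc2a1 and Slco1a4 had -0.08, 0.03, -0.15 and 0.11. The list's median was 0.26, where that of all genes was 0.02, and 17 of the 20 had their lowest mean in the ICI group, as did 5336 of all 18427 genes. With 4 tissue scores (choroid plexus, striatal, dentate granule and neocortical neurons) as covariates the median was -0.08, with 4 positive and 2 negative nominal genes. Among 15 junction genes the nominal ones were Lsr, Cldn5 and F11r, which encodes the adhesion molecule JAM-A, and the median was 0.21. It was 0.13 without melanoma plus ICI replicate 3, -0.10 with 4 tissue scores, and -0.01 with choroid plexus and meningeal scores, where 3 positive and 3 negative genes were nominal. The scaffold gene Tjp1 had -0.30 (SE 0.22) and was not nominal. All 5 red blood cell genes tested were also positive and lowest in ICI, with a median of 0.98 and 0 nominal. That median was 0.17 without control replicate 4 and melanoma plus ICI replicate 1. The red blood cell score was -1.61 and -1.24 in ICI replicates 1 and 3, and 0.54 or more in the other libraries. The part of residual blood in the vascular values was not tested.

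Mural cells and meninges gave larger medians, and 35.7% of the mural, 50% of the meningeal and 40% of the choroid plexus genes were nominal beside 10.3% of all genes, of which 52.8% were positive. Of 14 genes of pericytes and smooth muscle, 13 had a positive interaction and 5 were nominal (Vtn, Des, Rgs5, Acta2 and Myl9), with a median of 0.59. Vtn, which encodes vitronectin and is made by pericytes, averaged 73.5 ± 15.5 CPM in controls (SD, n = 5), 52.4 ± 10 under inhibitors alone, 59 ± 11 with a tumour and 78.6 ± 17.7 with both, and had an interaction of 0.90 (SE 0.24). All 12 meningeal fibroblast genes had a positive interaction, with a median of 1.16 and 6 nominal, none negative. They included the growth factor gene Igf2 at 2.16 (SE 0.70), which was 1.01 with 4 tissue scores, and the collagen gene Col1a1 at 1.13 (SE 0.53). With 4 tissue scores 0 of the 12 meningeal genes were nominal, with a median of 0.86. Of the 14 mural genes 2 were nominal in that fit, with a median of 0.48. All 15 choroid plexus genes were also positive, with a median of 2.84 and 6 nominal (2 without melanoma plus ICI replicate 3, and 11 without control replicate 4 and melanoma plus ICI replicate 1), among them the prolactin receptor gene Prlr at 3.03 (SE 1.19).

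The tissue marked by these 2 lists was not held constant between libraries. The choroid plexus scores in replicate order were 0.81, 6.56, 5.39, 1.19 and 6.05 in control, and 0.27, 4.03, 2.93, 4.7 and 4.99 in ICI. In tumour-bearing mice they were 2.83, 1.04, 1.85, 5.58 and 4.09 in melanoma, and 1.23, 4.57, 5.74, 6.68 and 4.87 in melanoma plus ICI. Every group held low and high libraries, and the group means were 4.0, 3.38, 3.08 and 4.62 in control, ICI, melanoma and melanoma plus ICI. With choroid plexus and meningeal scores as covariates, an alternative chosen after the data were seen, the median was 0.16 for mural cells. The values of the meningeal and choroid plexus lists themselves in that fit carry no information, since the scores are made of their own genes. The endothelial median was then 0.13, with 5 positive and 1 negative. In that fit Lsr, Cldn5 and Bsg had interactions of 0.82, 1.40 and 0.76. The 15 leading genes with a positive interaction all had an unadjusted p under 0.05 there, as did 2780 positive and 2220 negative of all genes. Those 15 were chosen by their small p in the same libraries, so this count is not separate support.

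**Figure D3:**
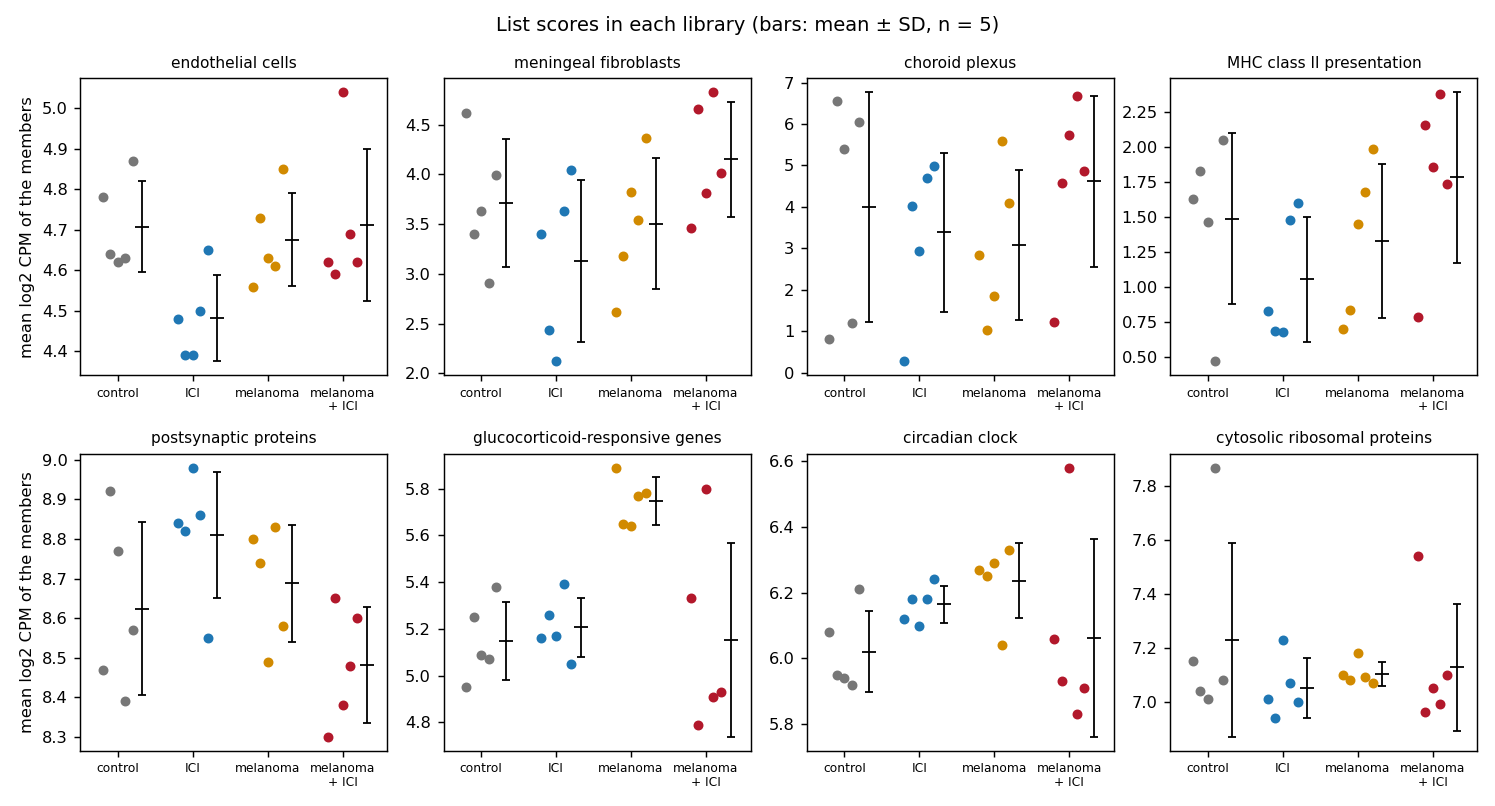
Mean log2 CPM of the members of 8 lists in each library, by group, with the mean and SD of 5 libraries. The choroid plexus scores spread from 0.27 to 6.68 within and across groups, whereas the glucocorticoid scores of all 5 melanoma libraries (5.64 to 5.89) lie above all libraries of other groups except melanoma plus ICI replicate 3 at 5.80.

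Positive interactions were found in 12 of 15 reactive and 12 of 15 homeostatic microglia genes tested, in 14 of 16 genes of MHC class I and in 5 of 7 of class II, where 52.8% of all genes had one. Lyz2 encodes lysozyme of myeloid cells. It was 6.74, 6.85, 5.79, 6.18 and 6.32 CPM in controls and 2.7, 2.91, 3, 5.07 and 4.89 with inhibitors alone. In tumour-bearing mice it was 4.37, 4.65, 4.85, 5.64 and 7.03 CPM, and 7.31, 8.03, 6.5, 9.2 and 6.01 with inhibitors. All ICI libraries were below all controls, and the tumour-bearing groups overlapped through melanoma replicate 5. The interaction was 1.26 (SE 0.26, adjusted p = 0.253 in edgeR, 0.00538 in DESeq2), with the limit that its neighbour Lyz1 is a close copy and could share reads.

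Of the reactive microglia genes 5 were nominal (33.3%, beside 10.3% of all genes), all positive, and the median was 0.21, and 0.36 without melanoma plus ICI replicate 3. After Lyz2 came Ctsd, the lysosomal protease cathepsin D, at 0.71 (SE 0.16), and Cd63, a tetraspanin of late endosomes, at 0.95 (SE 0.23), both past the DESeq2 threshold with adjusted p-values of 0.0282 and 0.0404. Cd68, Gpnmb, Axl and Spp1, also on that list, had -0.05, 0.09, 0.02 and 0.21 with none nominal, and Cst7, Itgax and Clec7a were too low to test. Of the homeostatic microglia genes 3 were nominal (20%), Olfml3 and Fcrls among them, while Tmem119, Cx3cr1 and Csf1r had -0.01, 0.01 and -0.08. The lysosomal genes Ctsh (cathepsin H) and Glmp were among the leading genes, at 0.76 and 0.46, and Gm2a (the activator of ganglioside breakdown), past the threshold in both DESeq2 and limma voom, had 0.48.

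MHC class I genes were nominal in 8 of 16 (50%, beside 10.3% of all genes), all positive, with a median of 0.39. With 4 tissue scores 2 positive and 1 negative were nominal and the median was 0.27, and with choroid plexus and meningeal scores it was 0.21 with 5 positive. H2-T23, a non-classical class I gene that engages inhibitory receptors of natural killer cells, had 1.29 (SE 0.38), which was 0.64 with 4 tissue scores, and B2m, the light chain shared by class I molecules, had 0.54 (SE 0.22). Of 7 class II genes 4 were nominal (57.1%, beside the same 10.3%), and H2-Eb1, H2-Ab1 and H2-Aa had group means of only 1.14 to 3.76 CPM. H2-Eb1, a class II chain, was 3.13, 4.08, 2.32, 1.48 and 3.73 CPM in controls and 1.37, 0.662, 0.667, 2.14 and 2.49 with inhibitors alone. With a tumour it was 0.967, 0.981, 1.3, 2.12 and 3.6 CPM, and with inhibitors 1.52, 4.97, 2.94, 5.69 and 3.69. Both pairs overlapped, and the interaction was 2.07 (SE 0.62, edgeR adjusted p = 0.432). It was 0.85 with choroid plexus and meningeal scores as covariates, and that of H2-Aa went from 1.74 to -0.17. The class II list had a median of 1.31 without covariates and 0.19 with these scores.

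Lymphocytes were at the limit of detection. Only 5 of 16 genes of T and natural killer cells could be tested, Cd3e, Cd8a and Gzmb not among them, and 0 of 10 genes of neutrophils and monocytes. Trbc2, a T cell receptor constant gene, rested on a few libraries: it was 7.38 and 3.61 CPM in control replicates 4 and 5, and 8.91 and 10.5 in melanoma plus ICI replicates 1 and 3. The other melanoma plus ICI libraries held 0.158 to 0.4 CPM, and the interaction was 4.52 in edgeR and -0.45 with quality weights per library in limma voom. These 4 libraries had the highest neocortical scores of the 20, between 4.45 and 4.87 where the others reached at most 4.29, and with 4 tissue scores, the neocortical one included, the interaction was 1.08. The genes of the antibodies' targets were too low to test, with 9, 11, 4 and 12 counts of Pdcd1 and 11, 7, 20 and 15 counts of Ctla4 summed over the 5 libraries of each group, in the order control, ICI, melanoma, melanoma plus ICI. Cd274, which encodes the PD-1 ligand PD-L1, had -0.10 (SE 0.32). Of the 10 checkpoint genes tested, 20% were nominal, beside 10.3% of all genes. They were Lgals9, which encodes galectin-9, at 0.38 (SE 0.16), and Havcr2, which encodes the receptor TIM-3, at -0.52 (SE 0.22).

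Calr, Pdia6 and Hsp90b1, 3 chaperones of the endoplasmic reticulum, were past the DESeq2 threshold with positive interactions. Calr and Pdia6 are on none of the gene lists, and the list of endoplasmic reticulum stress genes had 2 nominal members of 13 (15.4%, beside 10.3% of all genes). The unfolded protein response raises such chaperones through the endoplasmic reticulum stress response element, which is CCAAT and CCACG with 9 bases of any kind between them and to which NF-Y and ATF6 bind. The 4 genes shown had been seen before the element was looked for, and all 4 hold it. They are Calr (calreticulin, a calcium-binding chaperone that also helps to load MHC class I), Pdia6 (a disulfide isomerase), Hsp90b1 (GRP94) and Hspa5 (BiP). Their matches, read along the element's own strand with its fixed letters in capitals, are given first, and then the upstream windows of 3 of them, where the capitals mark the same fixed letters on either strand.
Hsp90b1, chr10:86705638-86705656: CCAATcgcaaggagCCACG
Hsp90b1, chr10:86705533-86705551: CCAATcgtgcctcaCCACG
Pdia6, chr12:17266491-17266509: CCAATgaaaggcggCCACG
Calr, chr8:84847075-84847093: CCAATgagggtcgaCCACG
Hspa5, chr2:34772025-34772043: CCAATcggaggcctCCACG
Hsp90b1, chr10:86705510-86705694, minus strand: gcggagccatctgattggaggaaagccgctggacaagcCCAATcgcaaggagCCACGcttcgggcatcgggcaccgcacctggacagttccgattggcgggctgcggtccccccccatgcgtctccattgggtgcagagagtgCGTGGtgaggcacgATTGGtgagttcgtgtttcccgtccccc
Pdia6, chr12:17266339-17266544, plus strand: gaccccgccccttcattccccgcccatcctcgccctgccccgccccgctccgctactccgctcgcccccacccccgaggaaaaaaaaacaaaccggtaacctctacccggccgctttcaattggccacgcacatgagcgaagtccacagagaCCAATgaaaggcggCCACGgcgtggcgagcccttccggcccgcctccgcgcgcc
Calr, chr8:84846935-84847181, minus strand: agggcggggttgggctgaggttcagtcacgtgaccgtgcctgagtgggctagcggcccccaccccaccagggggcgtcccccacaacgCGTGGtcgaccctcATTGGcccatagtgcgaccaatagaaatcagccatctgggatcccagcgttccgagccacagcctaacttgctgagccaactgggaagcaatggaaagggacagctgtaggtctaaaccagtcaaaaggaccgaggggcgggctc

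The sequences are from RefSeq on build GRCm38.p6, 5′ to 3′ along each gene, and each lies before the gene's start in RefSeq. The 3 windows and the matches of Hsp90b1, Pdia6 and Calr also end before the deposited start, while the match of Hspa5 lies inside the deposited gene, which starts at 34771970. Both strands of the 250 bases before each RefSeq start were searched, and 37 of 32851 promoters (0.113%) hold the element. Of the 12 genes of the endoplasmic reticulum stress list in that search, 3 hold it, namely Creld2, Hsp90b1 and Hspa5. Hsp90b1 holds it 2 times, once on each strand, and the match of Calr is on the opposite strand. The element was looked for after these genes had been seen, and a match describes letters, not a bound site. Of the 20 tested genes with a match, 16 had a positive interaction, where 52.8% of all genes had one. The nominal ones were 5, all positive, namely the 4 genes that prompted the search and Canx (calnexin) at 0.21 (SE 0.10), so these counts describe the choice and support nothing.

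Calr was 374, 423, 386, 428 and 363 CPM in controls and 312, 330, 332, 335 and 326 with inhibitors alone. With a tumour it was 304, 336, 341, 365 and 353 CPM, and 417, 419, 299, 415 and 407 with inhibitors. The tumour-free groups did not overlap, and 4 of the 5 melanoma plus ICI libraries were above all melanoma libraries, with replicate 3 below them. The interaction was 0.48 (SE 0.12, adjusted p = 0.344 in edgeR, 0.0404 in DESeq2 and 0.0467 in limma voom), and 0.57 without that library.

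Pdia6 had the same layout, at 117 to 146 CPM in controls and 106 to 115 with inhibitors alone. With a tumour it was 111, 115, 124, 120 and 125 CPM, and with inhibitors 151, 141, 144 and 145 in replicates 1, 2, 4 and 5. Again every ICI library was below every control, and melanoma plus ICI replicate 3, at 6.81 on the log2 CPM scale where the other 4 were at 7.14 to 7.24, was the 1 treated library within the melanoma range. The interaction was 0.50 (SE 0.11, edgeR adjusted p = 0.253, DESeq2 0.0133). Hsp90b1 had 0.55 (SE 0.13, DESeq2 adjusted p = 0.0192) and Hspa5 0.35 (SE 0.13, DESeq2 adjusted p = 0.335). All 13 genes of the endoplasmic reticulum stress list were positive, but only Hsp90b1 and Hspa5 were nominal, and Ddit3 and Herpud1 had 0.09 and 0.08. The list's median of 0.25 was 0.08 without control replicate 4 and melanoma plus ICI replicate 1.

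The other leading genes with a positive interaction were Fgfrl1 (a decoy-like relative of the fibroblast growth factor receptors), Itgb5 (an integrin chain), Tmem106c, Mmp14 (a membrane-bound metalloprotease), Nipal2 and Etv4 (an ETS transcription factor), at 0.47 to 1.02. All 15 leading genes with a positive interaction passed in DESeq2, 9 in limma voom and 6 with a surrogate variable. Of all genes, 0.233%, 0.0923% and 0.206% passed in these fits with a positive interaction. The 15 were chosen by their small p on the same counts, so their passing is not separate support. Mmp14 was 10.9 to 13.8 CPM in ICI libraries and 14.8 to 17.9 in controls, without overlap, and 12 to 22.2 in melanoma plus ICI against 11.2 to 14.1 in melanoma, with replicates 1 and 3 of the treated group inside or next to the melanoma range. Aspg, listed as a gene of reactive astrocytes, was past the DESeq2 threshold at 1.19 (SE 0.28, adjusted p = 0.0238). That list held 4 nominal genes of 20 (20%, beside 10.3% of all genes). Its median was 0.40, and -0.01 with choroid plexus and meningeal scores. Gfap, the standard marker of astrocyte reactivity, had -0.09 (SE 0.23), with group means of 347, 343, 319 and 298 CPM and SDs of 48.4 to 68.7. Lcn2, another marker of reactive glia, had 1.33 (SE 1.63) at under 4 CPM in every library, and 0.44 without melanoma plus ICI replicate 1.

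Negative interactions had fewer calls. Gpt2, a mitochondrial enzyme that converts alanine and 2-oxoglutarate into pyruvate and glutamate, led them. It was 57.4, 80.7, 73.6, 53.5 and 75 CPM in controls and 73.1, 82.5, 85.6, 84.3 and 62.2 with inhibitors alone. In tumour-bearing mice it was 95.1, 90.7, 81.3, 93 and 84.2 CPM, and 62.3, 58.1, 73.9, 56.3 and 62.9 with inhibitors. The tumour-free groups overlapped and the tumour-bearing groups did not, all melanoma libraries being higher. The interaction was -0.69 (SE 0.16, adjusted p = 0.253 in edgeR and 0.0362 in DESeq2).

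The other 3 negative calls of DESeq2 were Zswim6 at -0.73, Ptcd1 (a mitochondrial RNA-binding protein) at -0.62 and Ppp1r7 (a regulatory subunit of protein phosphatase 1) at -0.32, which was -0.19 with 4 tissue scores. Ptcd1 overlaps Bud31 on the opposite strand, which held 83.5% as many counts. Smpd3, a neutral sphingomyelinase, had -0.77 (SE 0.20) and Htr1b, the serotonin receptor 1B, -0.91 (SE 0.25). Htr1b was highest in melanoma replicates 3, 5 and 1, at 18.6, 15.7 and 13.7 CPM, the 3 melanoma libraries with the highest striatal scores, and its interaction was -0.59 with 4 tissue scores as covariates. Ints6, Rab40c, Pptc7, Gart, Mthfd1l, Ppil4, Ppp2r5d and Crlf3 completed the 15, at -0.30 to -0.52. Opposite-strand genes held 55.4%, 38.3% and 37.8% as many counts as Rab40c, Smpd3 and Ppp2r5d.

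The postsynaptic list had 19 of 20 negative interactions and a median of -0.37, where 8706 of all 18427 genes were negative. Of its genes 9 were nominal (45%, beside 10.3% of all genes), among them Shank3, Grin2b, Baiap2, Grin2a, Dlg3, Grin1, Dlg4 and Camk2b. These encode glutamate receptor subunits of the NMDA type, scaffolds of the postsynaptic density and a calcium-dependent kinase. Their means were highest in ICI in 18 of 20 and lowest in melanoma plus ICI in 17 of 20, beside 4864 and 4399 of 18427 genes. Dlg4, which encodes PSD-95, was 795, 940, 899, 775 and 818 CPM in controls and 905, 879, 1008, 915 and 764 with inhibitors alone. It was 934, 845, 796, 924 and 785 CPM in melanoma and 706, 802, 793, 711 and 779 in melanoma plus ICI, and both pairs overlapped. The interaction of Dlg4 was -0.26 (SE 0.12, edgeR adjusted p = 0.484), and -0.15 with 4 tissue scores. Of the markers of hippocampal neurons, the nominal ones were 1 of 6 for CA1, 0 of 9 for dentate granule neurons and 3 of 13 for CA2 and CA3. Over all genes 10.3% were nominal. CA1 markers were negative in 5 of 6, with a median of -0.48 that was -0.30 without melanoma replicate 2, and 5 of 6 had their lowest mean in melanoma plus ICI. Dentate granule markers had a median of -0.47, with 8 of 9 highest in ICI and 6 of 9 lowest in melanoma plus ICI. That median was -0.22 without melanoma plus ICI replicate 3, -0.70 without control replicate 2 and 0.25 with choroid plexus and meningeal scores. The CA2 and CA3 median was -0.15, and 0.04 without melanoma plus ICI replicate 3. With 4 tissue scores as covariates, the dentate one included, the postsynaptic median was -0.28 with 6 nominal genes, and the part of the CA1 markers was not tested.

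The postsynaptic values moved with the libraries left out. With 1 library left out, the median ran from -0.30 (without control replicate 4) to -0.43 (without control replicate 2). Without control replicate 4 and melanoma plus ICI replicate 1, the median was -0.28 and 1 gene was nominal. Without melanoma plus ICI replicate 3, 4 were nominal, and with the trend over gene length removed the median was -0.22 with 2 nominal. The presynaptic list, with 1 nominal gene of 20 and a median of -0.09, was near the background. Over all genes, the median interaction was 0.19, 0.12, 0.05, -0.04 and -0.14 from the shortest to the longest length quintile, and 0.04, 0.02, 0.00, -0.02 and -0.05 without the 2 libraries. All 31 nuclear-encoded respiratory chain genes and all 31 ribosomal protein genes had positive interactions, with medians of 0.36 and 0.27, and these were 0.04 and -0.04 without the same 2 libraries, and 0.17 and 0.09 without control replicate 4 alone. With choroid plexus and meningeal scores as covariates the values went the other way, to 0.56 with 26 nominal and 0.48 with 28 nominal, where 3 and 0 were nominal without covariates. The 13 genes of the mitochondrial genome had a median of 0.49, and 0.17 without the 2 libraries.

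Glucocorticoid-responsive genes are switched on when corticosterone activates its receptor, and many follow the daily rhythm of the hormone. Of 19 such genes, 17 had a negative interaction and 5 were nominal (26.3%, beside 10.3% of all genes), all negative, with a median of -0.44. With choroid plexus and meningeal scores 3 were nominal, and with 4 tissue scores 10, all negative. Their means were highest in the melanoma group in 16 of 19, beside 3939 of 18427 genes. Fkbp5, a co-chaperone that restrains the receptor, was 49.3, 81.9, 74.9, 54.1 and 62 CPM in controls and 76.3, 74.7, 93.3, 79.3 and 49.2 with inhibitors alone. In tumour-bearing mice it was 66.3, 67.5, 68.2 and 90.2 CPM in melanoma replicates 3, 2, 5 and 4 and higher still in replicate 1, and 45.8, 59.5, 50.2, 58 and 57.1 with inhibitors. All melanoma libraries were above all melanoma plus ICI libraries, and the tumour-free groups overlapped. The interaction of Fkbp5 was -0.76 (SE 0.24, edgeR adjusted p = 0.476), and -0.39 with 4 tissue scores.

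Hif3a, a hypoxia-inducible factor subunit, averaged 7.81 ± 2.38 CPM in controls (SD, n = 5), 9.28 ± 1.52 under inhibitors alone, 16 ± 5.26 with a tumour and 5.97 ± 5.4 with both. The last group split: replicate 3 was at 15.6 CPM, within the melanoma range of 12.6 to 25.1, and the other 4 were at 2.92 to 4.16, below every other library. The interaction was -1.67 (SE 0.53, adjusted p = 0.476 in edgeR and 0.0439 in limma voom). Ddit4, an inhibitor of mTOR, had -0.66 (SE 0.24), Errfi1, an inhibitor of the EGF receptor, -0.43 (SE 0.17), and Plin4, a lipid droplet protein, -1.80 (SE 0.73). Nr3c1, the receptor gene itself, had 0.15 (SE 0.15). Without melanoma plus ICI replicate 3 the list had 12 nominal genes, all negative, and a median of -0.64.

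Of 16 clock genes, 14 had a negative interaction, and 6 were nominal (37.5%, beside 10.3% of all genes). The repressors of the clock Per2, Per3 and Cry2 had -0.84, -0.66 and -0.30, and the output factors Dbp and Tef had -0.51 and -0.31. Sphk2 overlaps Dbp on the opposite strand and held 60.4% as many counts. Arntl, which encodes the activator BMAL1 and runs in the opposite phase, had 0.32 (SE 0.15). Per2 was 46, 53.8, 50.6, 24 and 59.7 CPM in controls, and 57.4, 72.6, 64.4, 72.7 and 60.7 with inhibitors alone. With a tumour it was 67, 63.9, 69.4, 67.7 and 76.4 CPM, and 34.1, 47.1, 99.1, 43.4 and 44.8 with inhibitors. Melanoma plus ICI replicate 3 was the highest of the 20 libraries, and the other 4 of its group were below all melanoma libraries. Without it 9 clock genes were nominal and negative and 1 nominal and positive, with a median of -0.37. Without control replicate 4 and melanoma plus ICI replicate 1, 3 were nominal, all negative, and Per2 at -0.54 and Per3 at -0.47 were not among them. The part that the time of harvest has in these values was not tested.

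**Figure D4:**
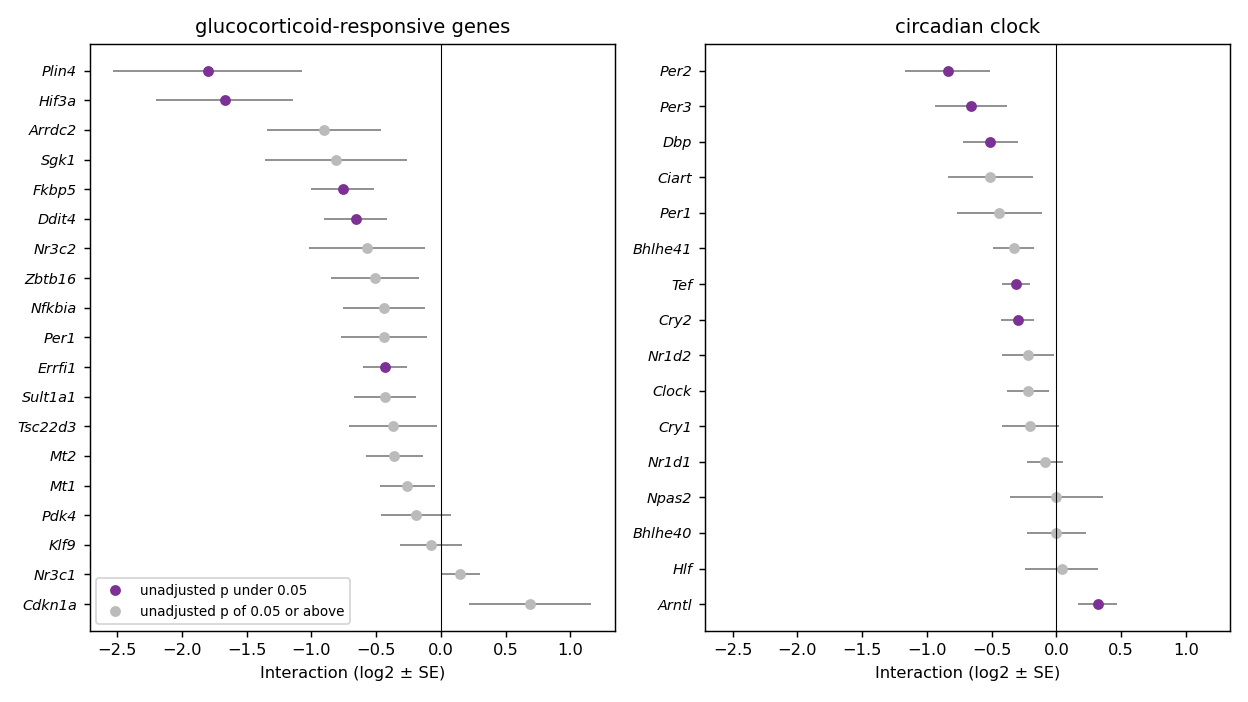
Interaction with its SE (log2, horizontal) for each of 19 glucocorticoid-responsive genes and 16 clock genes. Purple points have an unadjusted p under 0.05, which 5 and 6 genes have. Arntl, at 0.32, is the 1 purple point to the right of 0.

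Across the 30 leading genes, melanoma plus ICI replicate 3 differed least from the melanoma group. For 13 of the 30 its value did not lie beyond the range of the 5 melanoma libraries in the direction of the interaction, where replicates 1, 2, 4 and 5 had 3, 7, 4 and 5 such genes.

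All 12 striatal genes were negative, with a median of -1.23 and 1 nominal, and all had their highest mean in the melanoma group, where 3 libraries had high striatal scores. Without melanoma plus ICI replicate 3 the median was -1.79 with 8 nominal genes, all negative, and without melanoma replicate 3 it was -0.62. Astrocyte genes had 0 nominal of 16 and a median of 0.03, and myelin genes 0 of 15 and -0.06. Immediate early genes had 0 of 19, and interferon-stimulated genes 3 of 24 (12.5%), near the 10.3% of all genes that were nominal. The interferon median was 0.06, and -0.27 with either set of tissue scores as covariates. Without 1 library the astrocyte median reached -0.01 (melanoma plus ICI replicate 3), the myelin median 0.11 (control replicate 1) and the interferon median -0.06 (control replicate 5). Of 6 Fc receptor genes, Fcgrt (the neonatal Fc receptor) and Trim21 (a receptor for antibody inside the cell) were nominal (33.3%), at 0.51 and 0.77. With either set of tissue scores 0 of the 6 were nominal. Genes of CA2 and CA3 neurons had 3 nominal of 13 (23.1%), Coch at 1.78, Rgs14 at -0.92 and Cdh24 at -0.87. Cholesterol synthesis genes had 5 nominal of 17 (29.4%), all positive (Nsdhl, Msmo1, Insig1, Cyp51 and Fdps). The median of that list was 0.27, and 0.16 without the 2 libraries rich in ribosomal transcripts. Akap9 overlaps Cyp51 on the opposite strand and held 130% as many counts. Of 14 heat-shock and cold-inducible genes, Hspa1b, Hspa1a and Rbm3 were nominal (21.4%), at -0.73, -0.66 and -0.39. The first 2 are near-identical copies that can share reads. Of the melanocyte genes, Pmel held 74, 72, 67 and 71 counts summed over the libraries of the 4 groups in the same order as above, Dct held 75, 27, 85 and 65, and Tyrp1 held 15, 13, 12 and 33. Dct had the smallest p of that list, with an interaction of 0.97 (SE 0.72) that was not nominal.

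**Figure D5:**
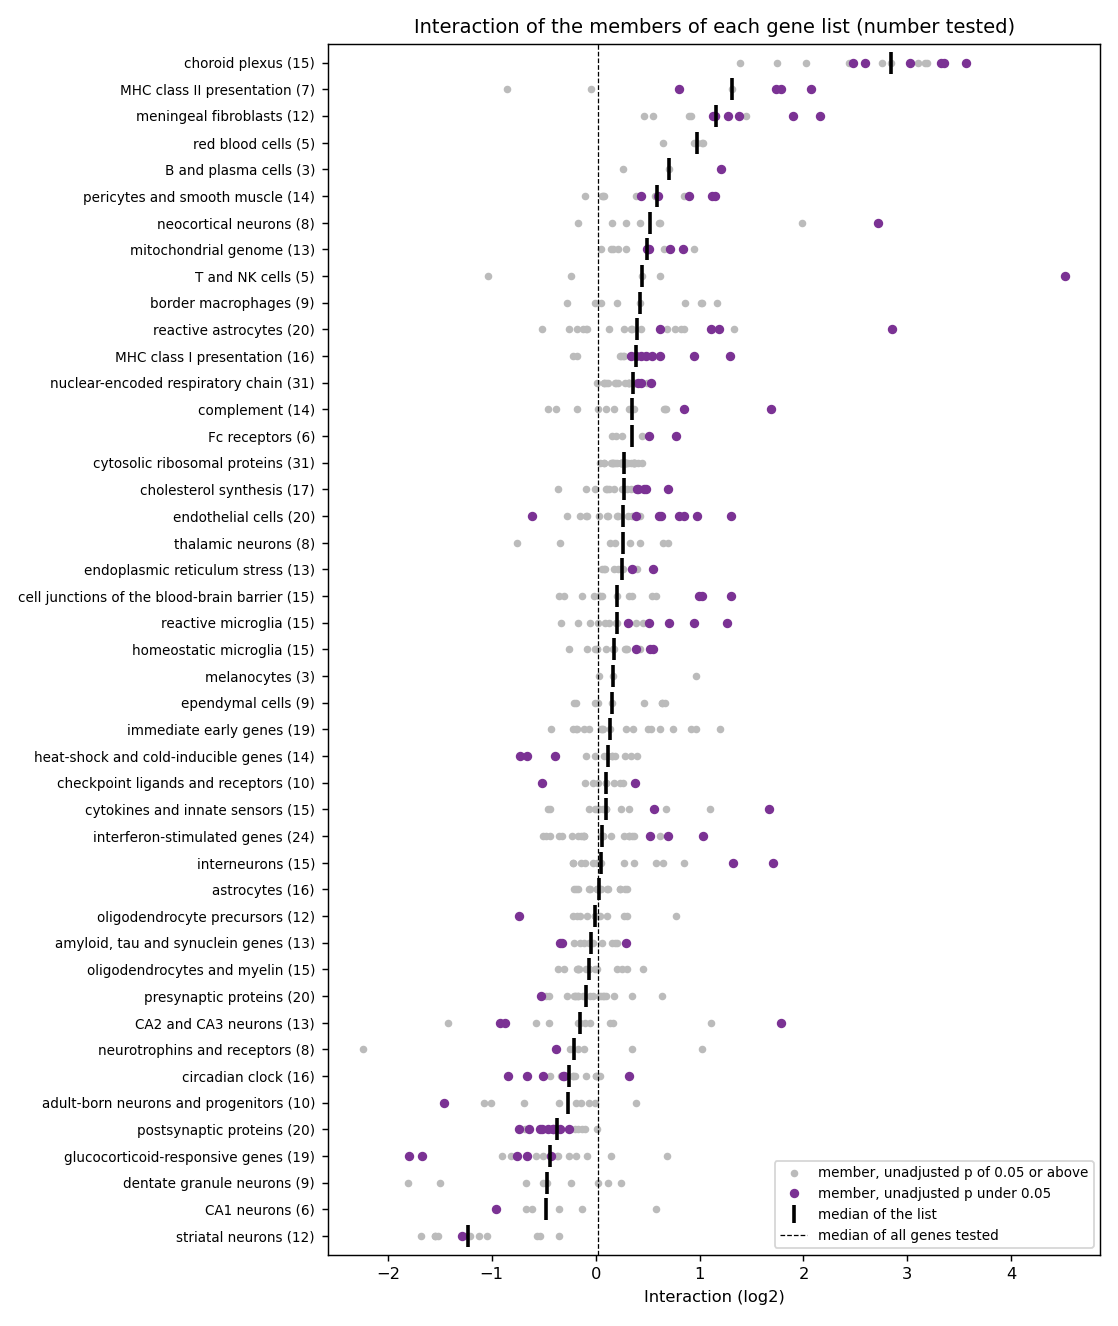
Interaction (log2) of every tested member of 45 gene lists, with the list median as a black bar and members with an unadjusted p under 0.05 in purple. The lists are ordered by median, from striatal neurons at -1.23 to the choroid plexus at 2.84, and the dashed line is the median of all genes, 0.02.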

How the data were processed

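Raw counts per gene were used as deposited, 1 table per library with 49671 genes, and the values are whole numbers called raw counts per the labels. STAR 2.5.2b and DESeq2 1.16.1 are named in the submitters' processing notes, without their roles. The counting program, strand setting, genome build and annotation are not given in the sources used here. Of the gene identifiers, 49412 occur in GENCODE M21 (GRCm38) 45214 of them with identical bounds, and printed gene coordinates are the deposited ones. Identifiers without a symbol numbered 345 and held 0.0702% of the counts. Groups and replicate numbers came from the sample titles, and pairs of libraries within a group differed by more than sampling noise (chi-square per gene 10.5 to 120 over 40 pairs).

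Tests used edgeR 4.0.16 in R 4.3.3, with filterByExpr (minimum count 10, minimum total 15), TMM factors of 0.9555 to 1.0432, robust quasi-likelihood fitting, 1 mean per group and no covariate. CPM (counts per 1000000) used TMM-scaled library sizes, and log2 CPM a prior count of 2. Scores average the log2 CPM of the tested genes of a list. P-values were adjusted over all 18427 genes by Benjamini-Hochberg. The script was tested on simulated data. Alternatives were DESeq2 1.42.0, limma 3.58.1 (voom with quality weights), 1 surrogate variable from sva 3.50.0, other scalings and filters, the replicate block, 4 tissue scores as covariates (choroid plexus, striatal, dentate granule and neocortical neurons), and leaving libraries out.

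Named were the 15 genes per direction with the smallest p among named genes averaging 1 CPM or more (symbols that begin with Gm and a digit or end in Rik left out, which also removed Gm2a), up to 4 nominal members of each list or else its smallest p, genes past both DESeq2 and limma voom, and Pdcd1, Ctla4, Cd274, Lcn2, Gfap and Dlg4. Other members appear as values for their list. The comparison, its lists and this rule were chosen with earlier results of these data known. Gene lists numbered 46, and no list was tested as a set. Intervals were not computed for single counts, and depth limits what is said of genes under about 1 CPM.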

Additional observations from a re-analysis of the deposited data

Results flagged for a closer look

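Of 216 groups of 5 values examined (the 30 leading genes and 24 cell type scores in 4 groups), 9 held a library whose gap to the nearest of the others was over 0.71 of the group's range. Chance flags about 1 in 20 groups. On the log2 CPM scale, melanoma replicate 4 was at 8.78 for Bsg, where the other 4 lay at 8.29 to 8.40, at 7.17 for Smpd3, where they lay at 6.91 to 6.95, and at 3.29 for the neocortical score, where they lay at 3.94 to 4.17. Melanoma plus ICI replicate 3 was at 6.81 for Pdia6 beside 7.14 to 7.24, at 4.08 for Crlf3 beside 3.77 to 3.81, and at 5.04 for the endothelial score beside 4.59 to 4.69. Melanoma replicate 1 was at 5.22 for Ptcd1 beside 4.99 to 5.03, melanoma replicate 5 at 6.11 for Pptc7 beside 5.92 to 5.97, and control replicate 4 at 6.17 for Ppp2r5d beside 6.58 to 6.71.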

How the results depend on the processing

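The count of 0 genes past the adjusted threshold was 47 with DESeq2 (43 positive), 19 with limma voom (17 positive), 39 with 1 surrogate variable (38 positive), and 1 (positive) without control replicate 4 and melanoma plus ICI replicate 1. Leaving out each library in turn gave 0 to 11, of which 0 to 6 positive. The 1103 positive genes at an unadjusted p under 0.05 became 817 to 1559 without 1 library and 2780 with choroid plexus and meningeal scores as covariates. The 789 negative ones became 467 to 1349 without 1 library, 454 without both libraries that stand apart, and 2220 with those scores. The cause of these shifts was not tested. The replicate numbers did not pair the samples: the 30 same-numbered pairs had a mean correlation of deviations of 0.0317, from -0.35 to 0.528. With the replicate block, 0 genes passed, and 983 positive and 745 negative interactions had an unadjusted p under 0.05. Signs turned for Trbc2 (-0.45 in limma voom), H2-Aa (-0.17) and Rsph1 (-0.07) with choroid plexus and meningeal scores, Tnnt1 (-0.12) and Lcn2 (-0.70) with 4 tissue scores, Gfap (0.04 in limma voom, 0.01 without ICI replicate 4, 0.05 without melanoma plus ICI replicate 3, and -0.18 to 0.05 over all single libraries left out) and Cd274 (0.05 in limma voom, 0.06 with a surrogate variable, 0.13 without both libraries, 0.09 without melanoma plus ICI replicate 1, and -0.23 to 0.09 over all single libraries). Of the other values of named genes under the alternatives, 4333 kept their sign and side of the threshold and 65 passed it.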
